A study of Homo sapiens with 192 samples.

Results

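LS513 and HCT116 are established human colorectal cancer cell lines, and this is an account of how their messenger RNA differed when both were grown in 2D, that is, attached to plastic in a flat layer. The comparison used 6 libraries of 24 in the series, LS513-2D replicates 1 to 3 against HCT116-2D replicates 1 to 3, and each library was the sum of 8 technical replicates, so that 48 of 192 samples entered it. The same lines grown in 3D as spheroids (3 libraries each) and the lines HT29 and LS174T (3 libraries each in 2D and in 3D) served only to see whether differences found in 2D were also present in libraries that had not been used to find them. No group received a drug, and each line came from 1 tumor. HCT116 was kept in McCoy medium and LS513 in DMEM, both with fetal bovine serum, so the line and its medium cannot be told apart. LS513 is microsatellite stable and HCT116 microsatellite instable, that is, deficient in DNA mismatch repair, so repair status goes with the line as well. The labels give cell line, growth condition and replicate number and do not say that replicates came from separate cultures, so p-values measure the spread between these libraries.

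The lining of the colon is renewed from stem cells at the base of the crypts, which depend on Wnt signaling. Their daughters become absorptive colonocytes, whose surface is a brush border of microvilli, or secretory cells, among them goblet cells, which release mucins and trefoil peptides. Transcription factors such as CDX1, CDX2 and HNF4A switch on intestinal genes, and ATOH1 and SPDEF direct cells to the secretory fate. Colorectal cancer lines keep these programs to very different extents, and some express genes that belong to mesenchymal, germline or neuronal cells.

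Depth did not separate the lines: totals were 31281090, 33063055 and 31513370 counts in LS513-2D and 31216706, 31925024 and 29705702 counts in HCT116-2D. Levels are in CPM, counts scaled by library total with edgeR's TMM factors, and 3 counts, the floor of detection, corresponded to between 0.0863 and 0.0965 CPM in these libraries. The libraries carry no molecular identifiers, so counts and floors cover counting error only. All 7 epithelial markers (EPCAM, CDH1, KRT8, KRT18, KRT19, CLDN4 and CLDN7) exceeded 3 counts in every library of both lines, with summed levels of 8495 to 8837 CPM in LS513-2D and 3769 to 4859 CPM in HCT116-2D. Of 9 leukocyte markers, 6 were at 0 counts in LS513-2D and 4 in HCT116-2D, PTPRC, CD3E, CD3D and MS4A1 in both, and the sums were 20.7 to 22.3 and 10.8 to 14.3 CPM. The 8 fibroblast markers summed to 2.03 to 2.34 CPM in LS513-2D (4 at 0) and to 13.2 to 15.2 CPM in HCT116-2D (5 at 0), with COL1A2, COL3A1, DCN and PDGFRA at 0 in both lines, and in HCT116 COL1A1 made up most of the sum. The 7 endothelial markers summed to 11.2 to 16.7 CPM in LS513-2D (5 at 0) and 38.7 to 57.8 CPM in HCT116-2D (none at 0), mostly EGFL7. The part of other cells in the differences below was not tested.

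Of 19387 genes tested with edgeR's quasi-likelihood test, 13246 (68.3%) differed between the lines in 2D at a Benjamini-Hochberg adjusted p under 0.05, and 6286 (32.4%) were higher and 6960 (35.9%) lower in LS513. At an unadjusted p under 0.05 there were 13673 (70.5%). With so large a share called, a call by itself says little about a gene, and the account therefore turns on genes that were on in one line and silent in the other. A gene was regarded as on in a line when it reached 1 CPM in each of the 3 libraries, and as silent when it had no more than 3 counts in each of the 3. By this rule 435 genes (2.24% of those tested) were on in LS513 and silent in HCT116, and 817 (4.21%) were on in HCT116 and silent in LS513. The 2D values chose these genes, so their 2D levels are given as a description without a test. A further 11721 genes were on in both lines. In bulk libraries fewer expressing cells and less RNA per cell cannot be told apart, and a gene that is on may be so in part of the cells.

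**Figure D1:**
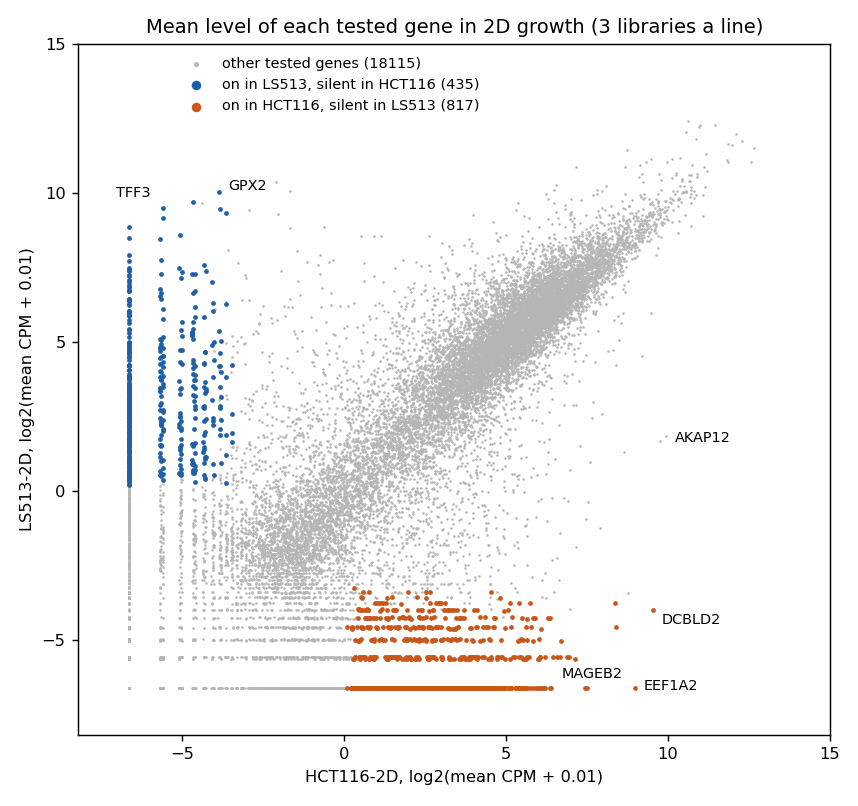
Mean level of each tested gene in 2D growth, HCT116 on the horizontal and LS513 on the vertical axis, both as log2(mean CPM + 0.01) over 3 libraries. The 435 genes on in LS513 and silent in HCT116 (blue) lie along the left edge, the 817 genes of the opposite kind (orange) along the bottom edge, and other tested genes are gray.

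The LS513 genes were fewer but reached higher levels. They had a median of 7.19 CPM (range 1.13 to 1044), and 187 of 435 averaged at least 10 CPM and 37 at least 100 CPM. The 817 HCT116 genes had a median of 5.20 CPM (range 1.05 to 742), and 257 averaged at least 10 CPM and 11 at least 100 CPM. Of the LS513 genes 356 were protein-coding, 66 long noncoding and 9 pseudogenes, and of the HCT116 genes 720, 76 and 18. The silent line had 0 counts in all 3 libraries for 208 of the 435 genes and for 442 of the 817. Reads on exons that genes share appear to have been counted for each of them, though the overlap option is not named. Merging such genes left 410 loci on in LS513 and 781 on in HCT116.

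The LS513 gene of highest CPM was GPX2 (ENSG00000176153; chromosome 14, 64939152 to 64942905, minus strand on GRCh38), the glutathione peroxidase of the gut epithelium. Its libraries had 1054, 1056 and 1023 CPM in LS513-2D and 2, 3 and 1 counts in HCT116-2D. CEACAM6 (ENSG00000086548; chromosome 19, 41750977 to 41772208, plus strand), a membrane-anchored adhesion protein, had 862, 841 and 762 CPM against 0, 2 and 1 counts. The trefoil peptide TFF3 (ENSG00000160180; chromosome 21, 42311667 to 42315651, minus strand), which goblet cells release with mucus, had 712, 754 and 697 CPM against 0, 0 and 1 counts. All LS513 libraries were high in these genes, and no HCT116 library exceeded 3 counts. Next in CPM came TSPAN8, a tetraspanin (757, 681 and 658 CPM), REG4, a secreted lectin of the Reg family (759, 642 and 499 CPM), and CDH17, the liver-intestine cadherin (592, 549.9 and 564 CPM). HCT116-2D had 0, 3 and 3 counts of TSPAN8, 2, 3 and 2 counts of REG4 and 0, 0 and 1 counts of CDH17. Not all leading genes belong to intestinal differentiation. TXNIP, an inhibitor of thioredoxin that responds to glucose, had 386, 380.2 and 315 CPM in LS513-2D and 0 counts in each HCT116-2D library, which puts LS513 at least 3959.6-fold higher against the floor of 3 counts. ACSS1, a mitochondrial acetyl-CoA synthetase (235, 230.0 and 251 CPM), and PODXL2, a sialomucin of the podocalyxin family (204, 216 and 211 CPM), were likewise at 0 in HCT116, at least 2621-fold and 2311-fold lower. TM4SF1, a tetraspanin-like membrane protein, had 186, 185 and 166 CPM against 0, 2 and 0 counts.

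The HCT116 gene of highest CPM was DCBLD2 (ENSG00000057019; chromosome 3, 98795941 to 98901689, minus strand), a transmembrane protein with a discoidin domain, at 809, 795 and 621 CPM in HCT116-2D against 3, 1 and 1 counts in LS513-2D. It lies at the edge of the rule for silent genes, since 1 of its LS513 libraries had the full 3 counts allowed. EEF1A2 (ENSG00000101210; chromosome 20, 63488012 to 63499322, minus strand), the translation elongation factor isoform of muscle and neurons, had 485, 424 and 603 CPM and 0 counts in each LS513-2D library, at least 5356-fold higher. DKK1, a secreted inhibitor of Wnt signaling, had 352, 285 and 374 CPM against 2, 0 and 1 counts. In these genes the spread among HCT116 libraries was small beside the distance to LS513. Moesin (MSN), which ties actin filaments to the plasma membrane, had 348, 331 and 301 CPM against 2, 2 and 2 counts. Caldesmon (CALD1), an actin-binding regulator of contraction, had 110.4, 112 and 90.3 CPM against 0, 2 and 0 counts. The remaining genes of the highest 15 were MAGEB2 and GTSF1, described with the germline genes, the metallothionein MT1E, the growth factor-binding protein IGFBP2, the inflammasome gene NLRP2, the protocadherin PCDH7, ADIRF (25.7% of its exons shared with AGAP11), the matrix proteoglycan VCAN, the glutamate transporter SLC1A3 and the fatty acid desaturase FADS1. Their means ran from 82.8 to 181 CPM in HCT116-2D, and none exceeded 3 counts in an LS513-2D library.

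**Figure D2:**
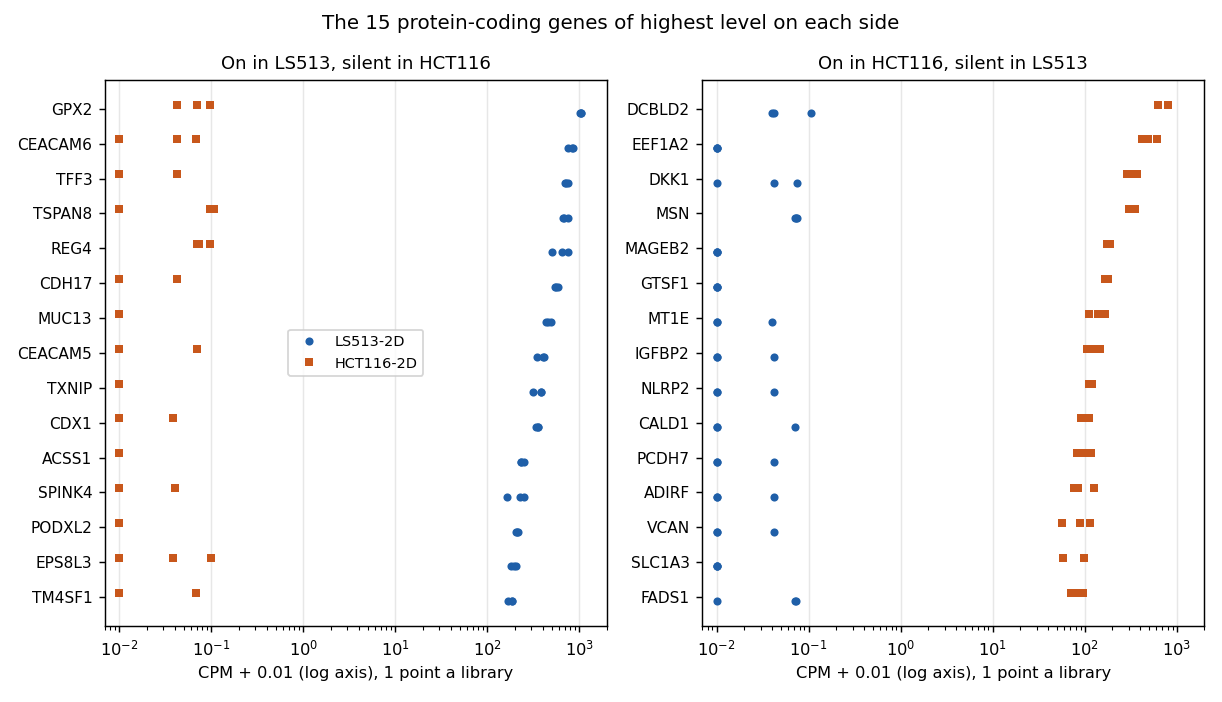
Levels in each 2D library of the 15 protein-coding genes of highest mean CPM on each side, as CPM + 0.01 on a log axis, 1 point a library (blue circles LS513-2D, orange squares HCT116-2D). Points of the silent line lie at or below the floor of 3 counts and those of the other line far to the right, with no overlap.

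Promoters of 6 of the leading genes are shown because their base composition differs visibly, and they were chosen after the levels were known. The contrast between them is thus part of the choice and says nothing about the promoters of the complete lists. Each run holds the 250 bases before the RefSeq start site on GRCh38.p14, 5′ to 3′ on the strand of the gene, and capitals mark CpG dinucleotides, the sites of DNA methylation. FABP1 (chr2:88128063-88128312, minus strand), REG4 (chr1:119811461-119811710, minus strand) and CEACAM6 (chr19:41755280-41755529, plus strand) were on in LS513, and DKK1 (chr10:52314031-52314280, plus strand), VCAN (chr5:83471494-83471743, plus strand) and DCBLD2 (chr3:98901696-98901945, minus strand) were on in HCT116.
FABP1: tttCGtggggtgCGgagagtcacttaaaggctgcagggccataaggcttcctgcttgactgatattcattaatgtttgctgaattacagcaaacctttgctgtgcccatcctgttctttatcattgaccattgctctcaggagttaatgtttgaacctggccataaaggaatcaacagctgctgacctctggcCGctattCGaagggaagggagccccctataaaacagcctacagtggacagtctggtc
REG4: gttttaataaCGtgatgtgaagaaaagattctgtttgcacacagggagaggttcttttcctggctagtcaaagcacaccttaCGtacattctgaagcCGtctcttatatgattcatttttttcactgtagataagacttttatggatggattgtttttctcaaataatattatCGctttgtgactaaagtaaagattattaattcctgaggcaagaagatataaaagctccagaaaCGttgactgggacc
CEACAM6: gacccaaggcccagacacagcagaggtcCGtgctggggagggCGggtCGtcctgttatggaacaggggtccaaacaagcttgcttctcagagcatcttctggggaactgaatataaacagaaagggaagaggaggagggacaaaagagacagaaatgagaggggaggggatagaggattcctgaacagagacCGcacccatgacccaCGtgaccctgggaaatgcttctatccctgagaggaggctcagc
DKK1: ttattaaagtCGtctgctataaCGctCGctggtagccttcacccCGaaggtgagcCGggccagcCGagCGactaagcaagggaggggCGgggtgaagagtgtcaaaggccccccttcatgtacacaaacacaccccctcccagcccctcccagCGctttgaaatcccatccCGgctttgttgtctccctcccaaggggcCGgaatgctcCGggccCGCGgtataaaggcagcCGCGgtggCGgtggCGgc
VCAN: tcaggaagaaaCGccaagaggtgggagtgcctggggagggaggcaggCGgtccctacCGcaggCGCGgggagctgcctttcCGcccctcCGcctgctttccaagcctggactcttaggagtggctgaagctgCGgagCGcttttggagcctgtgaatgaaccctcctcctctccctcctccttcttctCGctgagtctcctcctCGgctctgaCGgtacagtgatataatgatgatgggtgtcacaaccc
DCBLD2: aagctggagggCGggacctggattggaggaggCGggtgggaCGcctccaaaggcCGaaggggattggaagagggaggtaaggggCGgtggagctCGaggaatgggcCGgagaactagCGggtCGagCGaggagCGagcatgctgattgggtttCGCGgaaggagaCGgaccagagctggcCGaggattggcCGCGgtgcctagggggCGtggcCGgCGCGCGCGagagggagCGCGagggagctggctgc
The 3 LS513 promoters held 4, 5 and 5 CpG dinucleotides in these bases, and the 3 HCT116 promoters 18, 12 and 25. With the 50 bases after the start included, the numbers were 7, 5 and 5 and 20, 15 and 34. The TATA box letters TATAAA began 31 bases before the start site in FABP1, 31 in REG4 and 30 in DKK1, and 139 in CEACAM6. The GC box letters GGGCGG, searched on both strands, occurred in CEACAM6, DKK1 and VCAN 1 time each and in DCBLD2 2 times. Among all 27305 promoters of the RefSeq table (250 bases before and 50 after the start) 11.95% held TATAAA and 44.6% GGGCGG on either strand, and the median number of CpG was 14. A comparison of the complete lists was not made. An entry in the table existed for 264 of 356 LS513 protein-coding genes (74.2%) and 548 of 720 HCT116 genes (76.1%), beside 78.6% of all tested protein-coding genes. A match of letters is a description and not a binding site, and methylation was not measured.

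Transcription factors of the intestinal program were higher in LS513. Of 29 tested factors 22 (75.9%) were called higher and 1 (3.45%) lower, beside 34.5% higher and 38.5% lower among all 14692 tested protein-coding genes. The median log2 fold change was 1.94 against -0.04. These shares are also the background for every list below, whose counts include members that were on or silent. Among tested protein-coding genes 2.43% were on in LS513 and silent in HCT116 and 4.90% the reverse. The lists were written with earlier results of these data known, so the counts describe them and are no test of them. CDX1, a caudal-related homeodomain factor that patterns the intestine, was on in LS513 (359.8, 358 and 340.5 CPM) with 0, 1 and 0 counts in HCT116-2D. Its relative CDX2 was on in both lines, with 149, 145 and 168 CPM in LS513-2D against 18.6, 17.9 and 20.9 CPM in HCT116-2D (log2 fold change 3.01 ± 0.13 (SE), adjusted p = 5.09e-16). HNF4A, a nuclear receptor of hepatocytes and enterocytes, had 185, 187 and 221 CPM against 1.12, 1.58 and 1.86 CPM (log2 fold change 7.02 ± 0.20 (SE), adjusted p = 2.93e-19). Thus CDX1, and not CDX2 or HNF4A, fell under the rule for silent genes in HCT116. Among the other silent ones were the forkhead factor FOXA2 (35.6, 40.6 and 40.2 CPM), the intestinal homeobox gene ISX (11.3, 11.7 and 13.7 CPM), both with 0 counts in all HCT116-2D libraries, and CREB3L1 (42.6, 37.4 and 43.5 CPM against 2, 3 and 1 counts), a factor of the secretory pathway. GATA6, which maintains the epithelium, had means of 50.3 ± 3.82 and 6.67 ± 0.235 CPM (SD, n = 3), and KLF5, a factor of proliferating crypt cells, 224 ± 23.4 and 31.1 ± 1.61 CPM. The factor called lower was NR5A2, a nuclear receptor, with 3.96, 3.41 and 3.26 CPM in LS513-2D and 15.1, 17.00 and 10.5 CPM in HCT116-2D (log2 fold change -2.002 ± 0.19 (SE), adjusted p = 1.85e-09). The epithelial factors GRHL2 and ESRP1 were not called. GRHL2 averaged 48.4 ± 1.35 and 49.6 ± 7.804 CPM (log2 fold change -0.04 ± 0.12 (SE), adjusted p = 0.797) and the splicing factor ESRP1 154 ± 2.19 and 139 ± 20.5 CPM (log2 fold change 0.14 ± 0.10 (SE), adjusted p = 0.237), though without HCT116-2D replicate 2 the latter was called (log2 fold change 0.26, adjusted p = 0.0343). GATA4 and GATA5 had 0 counts in all 6 libraries.

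Among 12 tested regulators of the secretory lineage 6 were called higher and 1 lower in LS513, with a median log2 fold change of 1.15, or 0.65 with groups at 0 counts set to the floor. ATOH1, which commits cells to the secretory fate, had 8.33, 9.73 and 12.2 CPM in LS513-2D and 0.121, 0.115 and 0.193 CPM in HCT116-2D (log2 fold change 6.12 ± 0.29 (SE), adjusted p = 6.22e-15). SPDEF, which matures goblet cells, had 16.2, 20.1 and 23.7 CPM against 0.181, 0.230 and 0.160 CPM (log2 fold change 6.67 ± 0.34 (SE), adjusted p = 1.81e-14). XBP1, a factor that expands the secretory apparatus, was on in both lines, at 362 ± 20.2 and 55.6 ± 7.095 CPM (log2 fold change 2.70 ± 0.13 (SE), adjusted p = 6.05e-15), and GFI1, a repressor in the same lineage, was at 6.27 ± 1.705 and 5.01 ± 0.716 CPM (log2 fold change 0.32 ± 0.19 (SE), adjusted p = 0.133). ATOH1 and SPDEF were close to silent in HCT116 and missed the limit of 3 counts. Of the endocrine regulators on the list, NEUROG3 averaged 0.0629 CPM in LS513-2D and 0 in HCT116-2D, and NEUROD1, INSM1, PAX4, NKX2-2 and RFX6 had 0 counts in all 6 libraries. PAX6, a factor of the eye and of endocrine cells, was on in HCT116 and silent in LS513 (1.63, 2.27 and 2.47 CPM against 0 counts).

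Products of goblet cells were almost all higher in LS513. Of 22 tested genes 19 (86.4%) were higher in LS513 and none was lower, beside 34.5% and 38.5% of all tested protein-coding genes. On in LS513 and silent in HCT116 were 10. The median log2 fold change was 8.79, and 4.66 with groups at 0 counts set to the floor. Among the silent members TFF3 and REG4, given above, had the highest CPM, and SPINK4, a goblet cell protease inhibitor, followed with 227, 162 and 249 CPM against 1, 0 and 0 counts. ST6GALNAC1, which adds sialic acid to mucin sugars, had 70.1, 58.5 and 97.99 CPM and TFF1 39.4, 38.8 and 30.1 CPM in LS513-2D. Each of these had 0 counts in HCT116-2D, so that LS513 was at least 829.7-fold and 396-fold higher. The disulfide isomerase AGR3, PLA2G2A, an antibacterial phospholipase, LYPD8, TFF2 and SPINK1 were the other silent members, at means of 1.91 to 16.4 CPM. AGR2, the isomerase that folds mucins, missed the rule by a single count: it had 745, 718 and 974 CPM in LS513-2D and 0, 4 and 0 counts in HCT116-2D (log2 fold change 14.16 ± 0.39 (SE), adjusted p = 2.38e-19).

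Mucins, the large glycoproteins of mucus and of the cell surface, differed in the same way with 1 exception. Of 12 tested genes 9 were higher and 1 lower in LS513 (median log2 fold change 6.07, or 5.01 with groups at 0 set to the floor). MUC13, a transmembrane mucin, had 457, 438 and 496 CPM in LS513-2D and 0 counts in HCT116-2D, at least 5094-fold higher. MUC5AC, a gel-forming mucin typical of the stomach, had 114, 87.2 and 139 CPM against 0 counts, at least 1243-fold higher. MUC6, also a gastric mucin, had 83.3, 73.4 and 124 CPM against 0, 1 and 0 counts. MUC2, the main gel-forming mucin of the colon, had 9.52, 4.53 and 18.2 CPM against 0, 1 and 2 counts. Per kilobase of exon, LS513-2D had 133 CPM of MUC13, 6.49 of MUC5AC, 11.1 of MUC6 and 0.850 of MUC2. The exception was MUC4, a transmembrane mucin that binds ERBB2, with 4.47, 7.13 and 5.17 CPM in HCT116-2D and 1, 0 and 1 counts in LS513-2D.

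Surface proteins of the epithelium followed. Of 35 tested adhesion and surface genes 25 were higher and 6 lower in LS513 (median log2 fold change 2.05). Besides TSPAN8 and CDH17, the silent members in HCT116 were TMPRSS2, a serine protease of the cell surface (119, 118 and 121 CPM against 0 counts, at least 1313-fold), TM4SF5 (12.6, 10.2 and 13.1 CPM) and TM4SF4 (13.1, 9.15 and 8.08 CPM). Among the lower ones was E-cadherin (CDH1), the adhesion protein of epithelial junctions, with 25.7, 22.1 and 23.8 CPM in LS513-2D against 98.6, 90.99 and 77.3 CPM in HCT116-2D (log2 fold change -1.90 ± 0.13 (SE), adjusted p = 7.59e-12). The cadherins CDH1 and CDH17 thus differed in opposite directions. In the CEACAM family 5 of 7 tested genes were higher and 1 lower. CEACAM5, carcinoembryonic antigen, had 413, 343 and 399 CPM in LS513-2D and 2, 0 and 0 counts in HCT116-2D, and it shares 16.2% of its exonic bases with AC243967.1, which overlaps CEACAM6 also, so the 3 count as 1 locus. CEACAM19 was the lower one, at 7.500 ± 0.259 and 10.4 ± 1.03 CPM (log2 fold change -0.47 ± 0.12 (SE), adjusted p = 0.00170). GPA33, a glycoprotein of intestinal epithelium used as a tumor antigen, was not silent by the rule yet differed widely, with 1125, 982 and 1083 CPM against 0.211, 0.316 and 0.385 CPM (log2 fold change 11.76 ± 0.19 (SE), adjusted p = 9.83e-23).

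Absorptive genes were on in LS513 over a wide span of levels. Of 42 tested genes 32 were higher and 6 lower, the median log2 fold change was 3.71, and 10 were silent in HCT116 while none was silent in LS513 and on in HCT116. EPS8L3, which belongs to a family of regulators of the actin core of microvilli, had 198, 179 and 203 CPM against 3, 1 and 0 counts. The liver-type fatty acid-binding protein FABP1, whose promoter is printed above, had 174, 150.0 and 187 CPM against 0 counts, at least 1869-fold higher. MYO7B, the myosin at the tips of microvilli, had 150.2, 146 and 164 CPM against 1, 0 and 0 counts. The 3 LS513 values of each gene lay close together and far from HCT116. CFTR, the chloride channel mutated in cystic fibrosis, and GUCY2C, the receptor of guanylin, had 133, 135 and 139 and 103, 95.9 and 112 CPM in LS513-2D and 0 counts in HCT116-2D. The ligand GUCA2A (guanylin) was on in the same line, at 34.8, 26.4 and 13.6 CPM. Among the remaining silent members were the microvillar protocadherin CDHR5, the protease meprin (MEP1A) and FABP2, with means of 1.48 to 34.02 CPM. Villin (VIL1), the bundling protein of the brush border, had 1309, 1384 and 1307 CPM in LS513-2D and 0.151, 0.230 and 0.289 CPM in HCT116-2D (log2 fold change 12.52 ± 0.16 (SE), adjusted p = 8.88e-25), and with 5, 8 and 9 counts it was above the silent limit. Carbonic anhydrase CA2, an enzyme of surface colonocytes, went the other way, with 1.19, 0.695 and 0.634 CPM in LS513-2D and 84.9, 86.5 and 84.4 CPM in HCT116-2D (log2 fold change -6.66 ± 0.22 (SE), adjusted p = 4.03e-17).

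In the same libraries crypt genes and targets of Wnt signaling were higher in LS513. Of 31 tested genes 26 were higher and 5 lower, all of them called (median log2 fold change 2.36). ASCL2, a factor of intestinal stem cells, had 171, 165 and 162 CPM in LS513-2D and 0 counts in HCT116-2D, at least 1822-fold higher. LEF1, a partner of beta-catenin, had 54.2, 52.7 and 53.7 CPM and PROX1, a homeobox factor, 26.3, 28.9 and 20.1 CPM, each against 0 counts. LGR5, the stem cell marker and R-spondin receptor, had 12.9, 13.1 and 13.1 CPM against 1, 1 and 1 counts. LGR6, the phosphatase PTPRO and the Wnt inhibitor DKK4 were also silent in HCT116, at means of 1.27 to 9.501 CPM. Whether the same cells carried both kinds of transcripts was not measured. DKK1 was the member with the opposite state. MSX1, a homeobox gene, was lower without being silent, with 0.0965, 0.151 and 0.0950 CPM in LS513-2D against 68.4, 54.9 and 84.9 CPM in HCT116-2D (log2 fold change -9.19 ± 0.30 (SE), adjusted p = 5.50e-18). The ephrin receptors EPHB2 and EPHB3, which place cells along the crypt, were on in both lines. EPHB3 had 285, 308 and 298 CPM against 8.31, 8.63 and 11.3 CPM (log2 fold change 4.98 ± 0.21 (SE), adjusted p = 6.11e-16), and EPHB2 averaged 373 ± 10.9 against 45.1 ± 3.78 CPM (log2 fold change 3.05 ± 0.16 (SE), adjusted p = 5.10e-14).

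**Figure D3:**
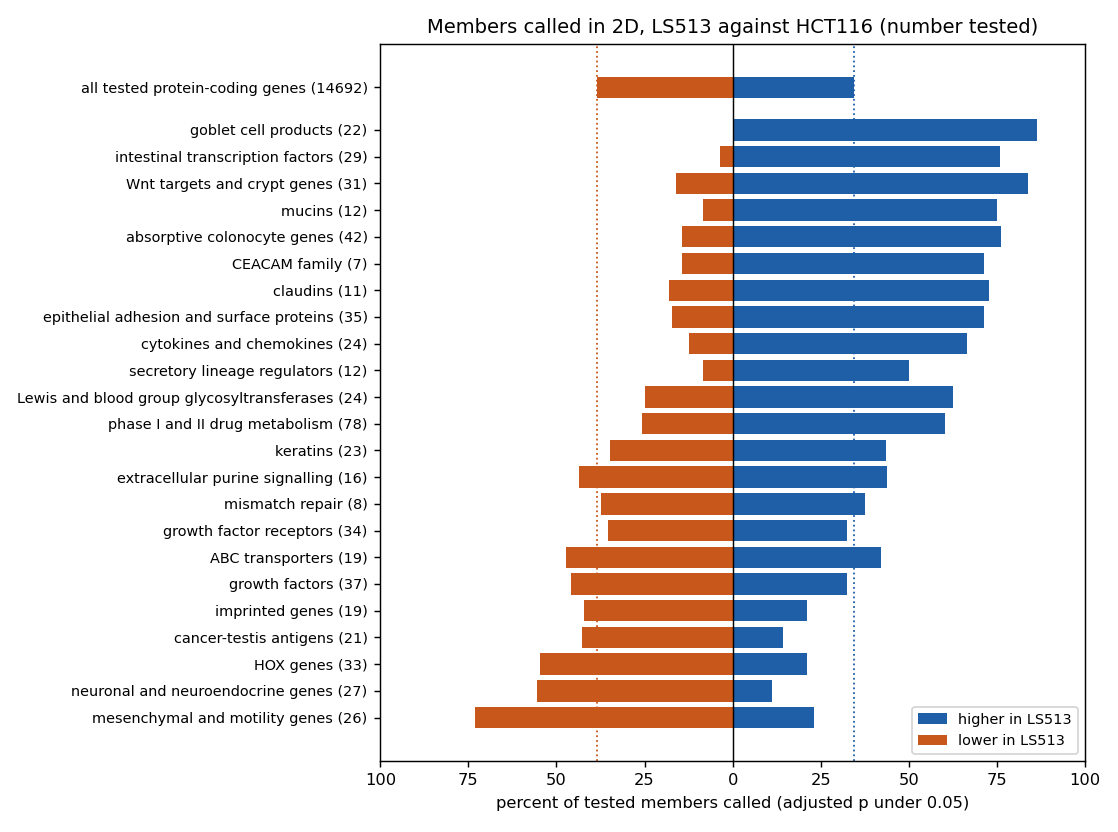
Percent of the tested members of each gene list that were called higher (blue, to the right) or lower (orange, to the left) in LS513 against HCT116 in 2D, with the number of tested members after the name. Dotted lines mark the 34.5% higher and 38.5% lower of all tested protein-coding genes. Goblet cell, Wnt and intestinal lists extend to the right and mesenchymal, neuronal and HOX lists to the left.

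Of 24 tested cytokine and chemokine genes 16 (66.7%) were higher and 3 (12.5%) lower in LS513 (median log2 fold change 2.40). IL33, an alarmin of barrier epithelia, had 103, 101 and 121 CPM in LS513-2D against 0, 1 and 0 counts, and IL32, a proinflammatory cytokine, 103, 103 and 105 CPM against 1, 0 and 2 counts. The chemokines CCL15 (33.1% of exonic bases shared with CCL15-CCL14) and CCL24 and the ligand TNFSF15 were the other silent ones in HCT116, at means of 12.97 to 18.6 CPM. Lower in LS513 were IL1A, CSF1 and IL18. IL18, which epithelia store as a precursor, averaged 13.7 ± 0.937 CPM in LS513-2D and 21.7 ± 0.576 CPM in HCT116-2D (log2 fold change -0.66 ± 0.13 (SE), adjusted p = 1.09e-04).

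Enzymes that modify drugs and hormones were mostly higher in LS513, 47 of 78 tested genes against 20 lower (median log2 fold change 2.29, or 1.55 with groups at 0 set to the floor). On in LS513 and silent in HCT116 were 15 and the reverse 3, states held by 2.43% and 4.90% of all tested protein-coding genes. ALDH1A1, which makes retinoic acid, had 148, 131 and 181 CPM in LS513-2D against 0, 3 and 0 counts in HCT116-2D. Opposite to it, ALDH1A3, an enzyme with the same reaction, had 4.09, 2.45 and 3.04 CPM in LS513-2D against 932, 807 and 870.5 CPM in HCT116-2D (log2 fold change -8.09 ± 0.22 (SE), adjusted p = 1.88e-19). The 2 retinaldehyde dehydrogenases thus differed in opposite directions. CYP26B1, which degrades retinoic acid, was on in HCT116 (19.9, 21.3 and 16.5 CPM against 0, 0 and 1 counts), and so was CYP24A1, which inactivates vitamin D (23.98, 21.1 and 23.4 CPM against 0, 1 and 1 counts). The vitamin D receptor VDR was on in both lines, at 90.1 ± 4.297 CPM in LS513-2D and 37.8 ± 3.97 CPM in HCT116-2D (log2 fold change 1.25 ± 0.10 (SE), adjusted p = 1.23e-10). The cytochromes CYP2B6 (22.9, 22.6 and 37.4 CPM against 0 counts) and CYP3A5 (23.5, 20.2 and 19.5 CPM against 0, 2 and 1 counts), which oxidize many drugs, were on in LS513. So were 7 glucuronosyltransferase genes of the UGT1A locus in the list, at means of 37.2 to 40.5 CPM, which share exons and stand for 1 locus. The counts and the median of this list hold them as 7 separate genes. NNT, the mitochondrial transhydrogenase, had 64.2, 66.6 and 65.2 CPM against 0 counts, at least 718-fold higher. NNT was named after its values were seen.

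Mesenchymal and motility genes were mostly higher in HCT116. Of 26 tested genes 19 were lower and 6 higher in LS513, beside 38.5% lower among protein-coding genes, and the median log2 fold change was -2.48 (-2.08 with groups at 0 set to the floor). On in HCT116 and silent in LS513 were 3 of the 26, a state held by 4.90% of all tested protein-coding genes. QKI, an RNA-binding protein that shapes mesenchymal splicing, had 18.2, 22.3 and 16.4 CPM in HCT116-2D and 0 counts in LS513-2D, at least 202-fold higher. LOXL1, which cross-links elastin, had 6.52, 8.196 and 8.95 CPM against 1, 2 and 3 counts. TWIST1, a repressor of epithelial genes, had 2.42, 2.93 and 3.27 CPM against 0 counts. Caveolin (CAV1), the coat protein of caveolae, missed the rule with 0, 4 and 4 counts in LS513-2D, where HCT116-2D had 477, 447 and 381 CPM (log2 fold change -12.28 ± 0.39 (SE), adjusted p = 3.28e-18). AKAP12, a scaffold that holds protein kinase A, had 3.93, 3.897 and 2.79 CPM in LS513-2D and 1241, 920.4 and 787 CPM in HCT116-2D (log2 fold change -8.12 ± 0.31 (SE), adjusted p = 1.14e-16). The list did not move as a block. Of all its 38 genes 10 were silent in both lines, and 19 were on in HCT116 and 12 in LS513. Vimentin (VIM) was on in neither line, with means of 0.136 CPM in LS513-2D and 0.855 CPM in HCT116-2D. TGFBI, an extracellular matrix protein, had 582, 598 and 687 CPM in LS513-2D and 0.242, 0.173 and 0.289 CPM in HCT116-2D (log2 fold change 11.36 ± 0.22 (SE), adjusted p = 1.65e-21), the largest difference of the list in favor of LS513.

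Collagens were divided in the same direction: of 24 tested genes 16 (66.7%) were lower and 8 (33.3%) higher in LS513. On in HCT116 and silent in LS513 were 11, a state held by 4.90% of all tested protein-coding genes. COL6A2, a chain of microfibrillar collagen, had 62.9, 58.4 and 71.2 CPM against 1, 0 and 1 counts. COL12A1, a collagen that associates with fibrils, had 64.6, 48.7 and 34.3 CPM against 0 counts, at least 523-fold higher. The 4 basement membrane chains COL4A3, COL4A4, COL4A5 and COL4A6 were also on in HCT116 and silent in LS513, at means of 2.04 to 11.4 CPM. COL27A1, COL9A3, COL5A2, COL11A2 and COL13A1 completed the 11, with 2.66 to 10.1 CPM. COL1A1, counted among the fibroblast markers, had 12.99, 14.4 and 14.8 CPM in HCT116-2D and 1, 3 and 4 counts in LS513-2D. COL1A1 thus missed the limit for silent genes by 1 count. FAP, a surface protease, was the fibroblast marker that changed state, and it was on in LS513 (1.58, 1.51 and 1.68 CPM against 2, 0 and 1 counts). Among markers of that cell type, then, 1 stood higher in each line. VCAN, a large proteoglycan of loose matrix whose promoter is shown above, had 115, 89.1 and 57.2 CPM against 1, 0 and 0 counts.

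Growth factors and their receptors were called in both directions, at shares near those of all tested protein-coding genes (34.5% higher and 38.5% lower). Of 37 factors 12 (32.4%) were higher and 17 (45.9%) lower, and of 34 receptors 11 (32.4%) were higher and 12 (35.3%) lower, so the account turns on single members. FGF2, a factor of fibroblasts and endothelium, had 23.2, 25.2 and 16.6 CPM in HCT116-2D against 0 counts in LS513-2D, at least 230.4-fold higher. FGF19, an intestinal hormone that restrains bile acid synthesis, had 15.8, 15.8 and 14.3 CPM against 1, 0 and 0 counts. PDGFC, NRG2 and NRG4, ligands of the PDGF and ERBB receptors, were silent in LS513 too, at means of 1.24 to 5.62 CPM in HCT116-2D. IGF2 also met the rule, but the files hold 2 gene identifiers of that name that share exons, and its value is not given. On in LS513 and silent in HCT116 were TDGF1, a coreceptor of Nodal also known as Cripto (6.02, 7.34 and 5.89 CPM), and FGF20 (2.09, 1.42 and 1.24 CPM). Among receptors, ROR2, which binds WNT5A, had 28.7, 29.1 and 27.8 CPM in HCT116-2D against 0 counts, at least 303-fold higher, and RET, the receptor of the GDNF family, 3.05, 4.03 and 3.95 CPM against 0 counts. AXL, a receptor of GAS6, was above the silent limit with 4, 2 and 4 counts in LS513-2D and 40.02, 33.3 and 34.01 CPM in HCT116-2D (log2 fold change -8.36 ± 0.33 (SE), adjusted p = 1.23e-16). MST1R, the receptor of macrophage-stimulating protein, had 361, 338 and 335 CPM in LS513-2D against 25.4, 29.97 and 23.3 CPM (log2 fold change 3.71 ± 0.17 (SE), adjusted p = 3.07e-15). BMP7, a bone morphogenetic protein, had 201, 205 and 192 CPM against 9.03, 7.53 and 9.305 CPM (log2 fold change 4.53 ± 0.15 (SE), adjusted p = 1.05e-17).

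Genes normally restricted to the germline were on in a few cases in each line. Of 61 cancer-testis genes on the list 44 were silent in both lines and 21 were tested. Of the tested ones 3 (14.3%) were higher and 9 (42.9%) lower in LS513, beside 34.5% and 38.5% of all tested protein-coding genes. MAGEB2, an X-linked cancer-testis antigen, had 177, 174 and 190.4 CPM in HCT116-2D against 0 counts in LS513-2D, at least 1921-fold higher. PRAME, a tumor antigen of melanoma, had 37.6, 38.99 and 46.6 CPM against 0 counts, at least 437-fold higher, and CSAG3 2.51, 2.85 and 2.92 CPM against 0, 0 and 1 counts. GTSF1, which takes part in transposon silencing by small RNAs in germ cells and was not on the list, had 170.5, 166 and 178 CPM against 0 counts, at least 1824-fold higher. LS513 expressed a different member of that pathway, the PIWI protein PIWIL1, at 31.3, 33.4 and 27.6 CPM against 0 counts in HCT116-2D, at least 338-fold higher.

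HOX genes, which encode position along the body axis, were more often lower in LS513. Of 33 tested 18 (54.5%) were lower and 7 (21.2%) higher (median log2 fold change -1.79). HOXC9 had 6.22, 5.895 and 8.28 CPM and HOXD8 4.89, 4.57 and 7.06 CPM in HCT116-2D, both with 0 counts in LS513-2D. HOXC4 and HOXC5 were also silent in LS513 by the rule, but they share exons with their neighbors and are not independent of each other. HOXB9 was the clearest exception, with 119, 135 and 135 CPM in LS513-2D against 21.3, 21.4 and 25.6 CPM in HCT116-2D (log2 fold change 2.51 ± 0.11 (SE), adjusted p = 9.67e-16), and HOXA13, which marks the hindgut, averaged 36.03 ± 0.951 against 7.698 ± 0.878 CPM (log2 fold change 2.23 ± 0.23 (SE), adjusted p = 7.00e-09). Of 27 tested neuronal and neuroendocrine genes 15 (55.6%) were lower and 3 (11.1%) higher in LS513 (median log2 fold change -1.49, or -0.94 with groups at 0 set to the floor). MAP2, a microtubule protein of dendrites, had 10.6, 15.5 and 8.15 CPM in HCT116-2D, and CNTN1, an axonal adhesion protein, 2.205, 2.59 and 2.44 CPM, both against 0 counts. CACNA1A, a subunit of a neuronal calcium channel, had 1.99, 2.24 and 1.32 CPM against 0, 1 and 1 counts. The highest HCT116 library exceeded the lowest clearly for MAP2 and CACNA1A and little for CNTN1, and all stood apart from LS513. NRXN3, a presynaptic adhesion protein, was the member on in LS513 and silent in HCT116 (4.44, 3.87 and 3.802 CPM against 0 counts).

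Imprinted genes are those of which normally a single parental copy is transcribed. Among 19 tested, 8 (42.1%) were lower and 4 (21.1%) higher in LS513, beside 38.5% and 34.5% of all tested protein-coding genes. NLRP2 had 119, 112 and 121 CPM in HCT116-2D and 0, 0 and 1 counts in LS513-2D. SGCE, a sarcoglycan, had 10.4, 11.5 and 13.1 CPM against 0 counts, and PEG10, its neighbor on chromosome 7, 4.86, 6.04 and 3.69 CPM against 1, 0 and 0 counts. L3MBTL1 was silent in LS513 as well (4.05, 5.69 and 4.07 CPM against 0 counts). H19, a noncoding RNA of the IGF2 locus, was higher in LS513, with 59.6, 55.8 and 119 CPM against 1.27, 1.32 and 1.12 CPM in HCT116-2D (log2 fold change 5.98 ± 0.33 (SE), adjusted p = 2.60e-13).

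Genes of extracellular purine signaling, the subject of the study, divided evenly. Of 16 tested genes 7 (43.8%) were higher and 7 lower in LS513, beside 34.5% and 38.5%, and 5 were on in HCT116 and silent in LS513, a state held by 4.90% of tested protein-coding genes. The adenosine receptor ADORA1 had 6.01, 5.58 and 8.12 CPM in HCT116-2D and 0, 1 and 1 counts in LS513-2D. ADORA2A had 6.83, 5.15 and 6.77 CPM against 3, 3 and 2 counts, with 56.8% of its exonic bases shared with SPECC1L-ADORA2A. The ATP-gated channel P2RX5 had 17.2, 15.9 and 17.5 CPM against 0 counts, and it shares 41.6% of its bases with P2RX5-TAX1BP3. P2RX7 (1.33, 2.36 and 1.96 CPM against 1, 0 and 0 counts) and the channel PANX2 (3.53, 2.67 and 5.45 CPM against 0 counts) were the others, so that no receptor of this list was on in LS513 and silent in HCT116. Higher in LS513 were P2RY1, a receptor of ADP, with 19.2, 19.2 and 19.04 CPM against 2.05, 2.93 and 2.86 CPM (log2 fold change 2.87 ± 0.25 (SE), adjusted p = 3.09e-10), and P2RY2, a receptor of ATP and UTP, with 14.9, 14.95 and 14.9 CPM against 5.104, 5.44 and 5.198 CPM (log2 fold change 1.51 ± 0.15 (SE), adjusted p = 2.32e-09). The ectonucleotidase NT5E (CD73), which makes adenosine from AMP, averaged 44.2 ± 4.46 CPM in LS513-2D and 32.05 ± 3.37 CPM in HCT116-2D (log2 fold change 0.46 ± 0.16 (SE), adjusted p = 0.0116). ENTPD8, an ectonucleotidase of epithelia, averaged 5.33 ± 0.677 against 0.223 ± 0.0383 CPM (log2 fold change 4.56 ± 0.38 (SE), adjusted p = 2.00e-10). Values are not given here for ADORA2B, P2RX4 and P2RY11, which the paper reports as expressed in all its colorectal cancer lines.

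Some lists with few or no changes of state held large differences in level. Over all tested protein-coding genes 2.43% were on in LS513 and silent in HCT116 and 4.90% the reverse. Few changes of state are therefore to be expected in lists of this size. None of 11 tested claudins, which seal tight junctions, was on in one line and silent in the other, and 8 (72.7%) were higher and 2 (18.2%) lower in LS513. CLDN2, a cation channel of leaky junctions, had 376, 406 and 337 CPM against 2.54, 2.502 and 1.48 CPM (log2 fold change 7.41 ± 0.21 (SE), adjusted p = 4.70e-19), and CLDN1 209, 201 and 185 CPM against 0.0604, 0.0575 and 0.160 CPM (log2 fold change 11.03 ± 0.29 (SE), adjusted p = 1.01e-19). Keratins were balanced, with 10 of 23 (43.5%) higher and 8 (34.8%) lower, beside 34.5% and 38.5% of all tested protein-coding genes. KRT20, a marker of differentiated colonocytes, had 472, 397 and 512 CPM in LS513-2D against 0.604, 0.661 and 0.674 CPM (log2 fold change 9.47 ± 0.23 (SE), adjusted p = 3.81e-20), whereas KRT32, a hair keratin, was on in HCT116 (5.26, 3.62 and 4.43 CPM against 0 counts). Of 8 mismatch repair genes 3 (37.5%) were higher and 3 (37.5%) lower in LS513. MSH3, which recognizes insertion and deletion loops, had 17.1, 17.3 and 19.04 CPM in LS513-2D against 4.29, 4.03 and 3.401 CPM (log2 fold change 2.19 ± 0.13 (SE), adjusted p = 2.51e-13). It was not silent in HCT116. ABC transporters, 8 of 19 (42.1%) higher and 9 (47.4%) lower, held large differences of both signs. ABCB1, the efflux pump P-glycoprotein, had 120.0, 112 and 94.4 CPM against 3.75, 4.77 and 3.72 CPM (log2 fold change 4.73 ± 0.15 (SE), adjusted p = 1.78e-18), and ABCC2, which exports conjugates across the apical membrane, 0.772, 0.725 and 0.760 CPM against 192, 208 and 156 CPM (log2 fold change -7.94 ± 0.26 (SE), adjusted p = 5.02e-18). ABCC3, its basolateral relative, averaged 274 ± 13.3 against 10.1 ± 0.444 CPM (log2 fold change 4.77 ± 0.19 (SE), adjusted p = 1.27e-16).

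Of 24 tested glycosyltransferases of Lewis and blood group antigens 15 (62.5%) were higher and 6 (25%) lower in LS513. FUT6, a fucosyltransferase of Lewis structures, had 4.73, 5.05 and 5.23 CPM in LS513-2D against 0 counts, and ST3GAL6, a sialyltransferase, 5.47, 6.097 and 5.42 CPM in HCT116-2D against 0 counts. GALNT5, which starts mucin glycans, averaged 205 ± 27.2 against 4.698 ± 1.33 CPM (log2 fold change 5.45 ± 0.25 (SE), adjusted p = 1.94e-15), and ST6GAL1 0.544 ± 0.0593 against 20.01 ± 3.66 CPM (log2 fold change -5.19 ± 0.21 (SE), adjusted p = 2.69e-16). Outside the lists, the genes of highest CPM with a log2 fold change of at least 3 either way that were not on or silent were, in LS513, the lysosomal protease CTSD (1761, 1746 and 2063 CPM against 131, 133 and 161 CPM; it shares 41.7% of its bases with AC068580.4) and the laminin receptor subunit ITGA6 (1079, 1167 and 1024 CPM against 95.8, 92.3 and 79.3 CPM). In HCT116 they included KITLG, the ligand of the receptor KIT (66.9, 65.8 and 56.4 CPM in LS513-2D against 693, 854 and 573 CPM), and PDP1, a phosphatase that activates pyruvate dehydrogenase (23.9, 22.9 and 21.7 CPM against 593, 631 and 547 CPM). Among noncoding genes LINC00667 (90.3, 96.9 and 74.3 CPM against 0 counts) led in LS513, and LINC01234 (30.3, 29.4 and 27.7 CPM against 0, 0 and 1 counts) and MIR100HG, the host transcript of several microRNAs (17.7, 18.7 and 18.8 CPM against 0 counts), in HCT116.

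Genes with the same state lay next to each other in places. Runs of at least 3 protein-coding genes of 1 direction, each starting within 250 kb of the next, numbered 16 for LS513 and 18 for HCT116. Counting genes that share exons as 1 locus, 13 runs for LS513 and 10 for HCT116 held at least 3 loci, so the order of the lines reversed. On chromosome 21 the 3 trefoil genes TFF3, TFF2 and TFF1 (42311667 to 42366594) were all on in LS513 and are the only protein-coding genes that start in the interval. On chromosome 11 the gel-forming mucins MUC6, MUC2 and MUC5AC (1012821 to 1201138) formed another complete run. Both runs consist of goblet or gastric secretory products. On the X chromosome BEX2, TCEAL9 and BEX3 (103309346 to 103378077), small proteins of 1 family, were on in HCT116 with means of 24.1 to 67.8 CPM. Runs of zinc finger genes occurred in both directions. LS513 had ZNF605, ZNF140, ZNF891 and ZNF10 on chromosome 12 (132918308 to 133159465), and HCT116 had 8 genes from ZNF264 to ZNF134 on chromosome 19 (57191500 to 57624723) among 26 that start there. Over the 451 tested zinc finger genes 156 (34.6%) were higher and 141 (31.3%) lower in LS513, beside 34.5% and 38.5% of all tested protein-coding genes. Of the 451 zinc finger genes 30 were on in LS513 and silent in HCT116 and 39 the reverse. These states were held by 2.43% and 4.90% of all tested protein-coding genes. The median log2 fold change of the zinc finger genes was 0.02. The 15 PCDHA genes on chromosome 5 (140786136 to 141012347) and the UGT1A genes on chromosome 2 share exons and count as 1 locus each. By chromosome, X held 40 HCT116 genes among 474 tested (8.44%), and chromosome 4 held 45 among 509 (8.84%), beside 4.90% over all chromosomes.

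The 3D libraries of the same lines, which took no part in the choice, kept most of these states. Of the 435 LS513 genes 410 were still on in LS513-3D, 355 were still silent in HCT116-3D, and 330 (75.9%) were both. Of the 817 HCT116 genes 782 were still on in HCT116-3D, 743 were still silent in LS513-3D, and 710 (86.9%) were both. All 435 were higher and all 817 lower in LS513 in 3D at an adjusted p under 0.05 in edgeR's test. They were chosen for a wide 2D difference between the same lines, so these calls were to be expected and lend no separate support. Among all tested genes, chosen by no such rule, 32.6% were higher and 35.9% lower. Only GBP2, an interferon-induced GTPase, became on in HCT116-3D, with 5.02, 2.52 and 1.404 CPM there against 1, 2 and 0 counts in HCT116-2D. In LS513-3D the membrane protein TMEM45A (2.85, 2.63 and 1.46 CPM) and the zinc finger gene ZNF274 (1.44, 1.598 and 1.11 CPM) were on, after 0, 0 and 2 and 1, 1 and 3 counts in LS513-2D. Levels in the line that was on were not always alike in the growth conditions, though the effect of growth was not tested here. FABP1 had 2265, 2373 and 1515 CPM in LS513-3D, against 174, 150.0 and 187 in LS513-2D, and 0 counts in every HCT116 library of both conditions. MUC17 had 61.9, 54.4 and 25.9 CPM against 8.66, 5.47 and 3.67 CPM, and MUC13 1213, 1156 and 1030.2 against 457, 438 and 496 CPM. In all 3 genes the 3D libraries of LS513 were above its 2D libraries. In HCT116, the interferon-induced IFIT1, named after its values were seen, had 149, 144 and 102 CPM in 3D and 3.62, 5.32 and 6.48 CPM in 2D, with 0, 1 and 0 and 1, 0 and 2 counts in LS513.

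HT29 and LS174T were not used to choose the genes, and each expressed a part of both sets. In HT29-2D 196 of the 435 genes (45.1%) were on and 116 (26.7%) silent, and in LS174T-2D 251 (57.7%) were on and 68 (15.6%) silent. Both other lines had 145 (33.3%) on and 33 (7.59%) silent. The 817 HCT116 genes were more often silent than on in those lines: 184 (22.5%) were on and 425 (52.0%) silent in HT29-2D, and 226 (27.7%) on and 398 (48.7%) silent in LS174T-2D. As many as 262 (32.1%) were silent in both, and 86 (10.5%) on in both. For comparison, 66.1% of tested genes were on and 12.4% silent in HT29-2D, and 68.6% and 9.51% in LS174T-2D, and these include the genes that are on everywhere. GPX2 averaged 1041 ± 92.95 CPM in HT29-2D and 217 ± 24.1 CPM in LS174T-2D (SD, n = 3). CDX1 averaged 0.462 ± 0.173 and 108 ± 7.61 CPM, and MUC6 0.0297 ± 0.0277 and 681 ± 34.1 CPM. CDX1 and MUC6 were thus low in HT29 and high in LS174T. Of the HCT116 genes, MAGEB2 averaged 0 and 0.0284 ± 0.0493 CPM, and MSN 960.1 ± 111 and 110.0 ± 11.3 CPM, so that moesin was on in 3 of the 4 lines and MAGEB2 in HCT116 alone. Genes on in LS513 and silent in the other 3 lines were led in CPM by GSDMA, a pore-forming gasdermin (50.2, 50.6 and 61.9 CPM in LS513-2D). Genes on in HCT116 and silent in the other 3 lines were led by MAGEB2, BEX3 (62.6, 61.7 and 79.2 CPM) and AMOTL1, a regulator of Hippo signaling (76.4, 68.7 and 53.97 CPM).

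**Figure D4:**
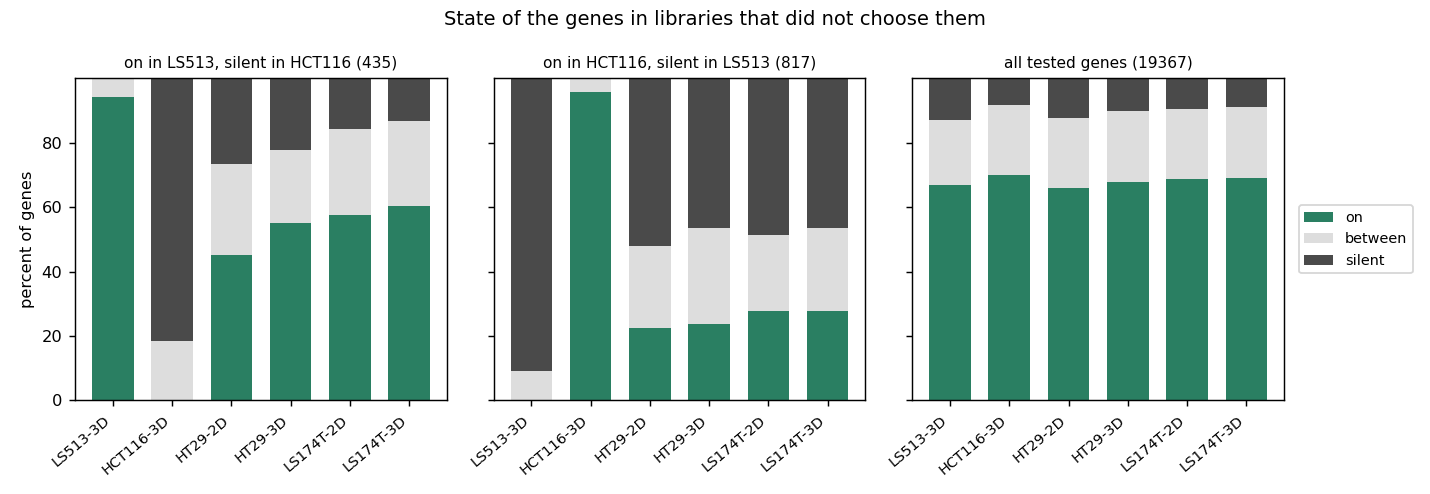
Percent of genes that were on (green), silent (dark gray) or between (light gray) in the 3D libraries of LS513 and HCT116 and in the 2D and 3D libraries of HT29 and LS174T, for the 435 LS513 genes, the 817 HCT116 genes and all 19367 tested genes without Y-linked genes, XIST and TSIX. The LS513 genes were on in 94.3% of cases in LS513-3D and silent in 81.6% in HCT116-3D, and the HCT116 genes on in 95.7% in HCT116-3D and silent in 90.9% in LS513-3D.

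The limits of the rule separate genes with nearly equal values. Just inside the limit for on genes, RORA had 1.93, 1.51 and 1.01 CPM and ZNF442 1.71, 1.42 and 1.01 CPM in LS513-2D, and just outside ARHGAP25 had 1.45, 0.997 and 1.81 CPM. In HCT116-2D, AC100803.2 was just inside with 1.03, 1.01 and 1.700 CPM and GPM6A just outside with 0.997, 1.21 and 1.54 CPM. The limit for silent genes excluded AGR2, CAV1 and CAV2, whose silent lines had at most 4 counts in a library (1, 0 and 4 counts of CAV2 in LS513-2D, against 133, 127 and 120.3 CPM in HCT116-2D), and admitted GPX2, TSPAN8, DCBLD2 and VAV2, a guanine nucleotide exchange factor with 0, 1 and 3 counts in LS513-2D and 81.4, 75.1 and 77.5 CPM in HCT116-2D.

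The line difference itself was compared between growth conditions by an interaction test, which called 841 of 19387 genes (4.34%). For 379 of them (1.95%) the log2 fold change of LS513 over HCT116 was higher in 3D than in 2D. Such genes include those in which a lead of HCT116 was smaller in 3D. For genes that were on in one line and silent in the other the interaction test is not independent of the choice, and no result of it is given for them. The list genes named for a large 2D difference are subject to the same limit in part. Among list genes that were neither on nor silent, CA2 had the smallest p of those named. It averaged 10.9 ± 1.802 CPM in LS513-3D and 50.4 ± 7.29 CPM in HCT116-3D. The lead of HCT116 in CA2 was smaller in 3D, with a log2 fold change of -6.66 in 2D and -2.21 in 3D (interaction 4.45, SE 0.26, adjusted p = 1.05e-09). In GALNT5 a lead of LS513 was smaller in 3D, at 233 ± 43.9 and 35.7 ± 5.77 CPM (interaction -2.74 ± 0.30, adjusted p = 2.87e-06). NT5E was higher in LS513 in 2D and lower in 3D, where it averaged 33.3 ± 4.63 CPM in LS513-3D and 56.03 ± 7.92 CPM in HCT116-3D (3D log2 fold change -0.75 ± 0.16 (SE), adjusted p = 1.83e-04).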

How the data were processed

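For every technical replicate the authors deposited raw, unnormalized counts of reads on each gene. Per the labels and the methods of the study, poly(A) RNA was made into stranded libraries, single reads were trimmed with Trim Galore 0.4.1 and aligned with STAR, reads aligned more than once were removed, and the rest were counted on exons with HTSeq-count 0.5.3. Its strand and overlap options are not named, so antisense genes and genes that share exons are uncertain. The labels name hg19, but 57980 of 58243 gene identifiers are in GENCODE 29 on GRCh38, from which positions were taken.

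Technical replicates were summed, and 1 of HT29 grown in 3D was not analysed here. With edgeR 4.0.16 (R 4.3.3) low genes were removed by filterByExpr, TMM scaling was used, and all 24 libraries were fitted with 1 coefficient for each of 8 groups by a robust quasi-likelihood test (two-sided, Benjamini-Hochberg adjusted). The lines were compared in 2D, in 3D and by interaction. Y-linked genes, XIST and TSIX were left out of lists and names. Median chi-square per degree of freedom between libraries was 2.13 in LS513-2D and 5.21 in HCT116-2D. With 3 libraries against 3, an exact permutation test cannot go below 0.1.

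Members and gene lists were chosen with earlier results of these data known. Named were the 15 protein-coding and 3 noncoding genes of highest CPM on each side, list members of highest level or largest change, purinergic genes, intestinal and secretory regulators, the 5 genes of highest CPM per direction past a log2 fold change of 3, genes that changed state in 3D, genes at the limits of the rule and genes in runs. On simulated counts for 18241 genes in 2D, 65 of 93 genes changed 2-fold (69.9%) and 87 of 96 changed 4-fold (90.6%) were recovered with 6 false calls. Alternatives were DESeq2 1.42.0, its size factors, all genes with a count, fewer libraries, a replicate block and other limits.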

Additional observations from a re-analysis of the deposited data

Results flagged for a closer look

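The difference between LS513 and HCT116 itself differed between 3D and 2D growth, by the interaction term of edgeR's quasi-likelihood test, for 14 of the genes given above with values. The interaction is the log2 fold change of LS513 over HCT116 in 3D minus that in 2D. Part of these genes were named for a large 2D difference, so the 2D values were not independent of their choice. A lead of HCT116 was smaller in 3D for CA2 (interaction 4.45, adjusted p = 1.05e-09), CAV1 (interaction 3.06, adjusted p = 0.0137) and NR5A2 (interaction 1.76, adjusted p = 1.65e-04). CA2 went from a log2 fold change of -6.66 in 2D to -2.21 in 3D, and NR5A2 from -2.002 to -0.24. A lead of HCT116 was larger in 3D for AKAP12 (interaction -1.43, adjusted p = 0.0254), ST6GAL1 (interaction -1.46, adjusted p = 0.0228) and IL18 (interaction -1.11, adjusted p = 5.93e-04). A lead of LS513 was smaller in 3D for GALNT5 (interaction -2.74, adjusted p = 2.87e-06), ABCC3 (interaction -1.45, adjusted p = 3.62e-04), EPHB3 (interaction -1.31, adjusted p = 0.00391), EPHB2 (interaction -0.91, adjusted p = 0.0135) and XBP1 (interaction -0.65, adjusted p = 0.0313). A lead of LS513 was larger in 3D for P2RY2 (interaction 0.96, adjusted p = 0.00590) and VDR (interaction 0.56, adjusted p = 0.0219). For NT5E (interaction -1.21, adjusted p = 0.00151) the sign changed, from 0.46 in 2D to -0.75 in 3D. Its call in 2D was lost without HCT116-2D replicate 2 (log2 fold change 0.39, adjusted p = 0.0578) and without LS513-2D replicate 3 (0.38, adjusted p = 0.0606). The causes of these differences were not tested.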

How the results depend on the processing

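Counts of called genes stayed within 1.5 times those reported with DESeq2's size factors (6122 higher and 7160 lower in LS513 in 2D), DESeq2, all genes with at least 1 count and only the 6 libraries. Leaving out each library in turn gave 5989 to 6208 higher and 6559 to 6748 lower in 2D, 6242 to 6435 and 6435 to 6551 in 3D, and 571 to 895 for the interaction. A log2 fold change of at least 1, a stricter criterion by construction, left 3735 and 4117 genes in 2D and 3691 and 4244 in 3D. The numbers of on or silent genes depend on the limits: from 5 CPM there were 248 in LS513 and 383 in HCT116, and with silent genes only at 0 counts 208 and 442. Without 1 library the numbers ranged from 441 to 465 and from 827 to 861. The replicate numbers did not pair the libraries, since deviations of same-numbered libraries of the lines correlated at 0.061, -0.007 and 0.025 in 2D and at -0.168, -0.044 and 0.020 in 3D. With a replicate block the 6 libraries gave 6255 higher and 6590 lower in 2D, 5745 and 6098 in 3D, and the 12 libraries gave 583 interaction calls, against 874 without the block, a fit added after the data were seen. Of 2536 alternative values of 234 named genes 2511 kept direction and call, 16 lost the call (of POU2F3, PAGE1, PMS2, NT5E, P2RX4 and KDR), 9 gained one (of NEUROG3, PANX1, ESRP1 and GFI1) and 0 reversed. At this depth a silent gene may still be transcribed at up to 0.0965 CPM.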
